A study of Mus musculus with 16 samples.

Results

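The clustered histone genes are the replication-dependent histone genes that stand side by side in the genome and carry the symbols Hist1h to Hist4h. They were taken as the protein-coding rows of the count table whose symbol begins with Hist1h, Hist2h, Hist3h or Hist4h. The rule found 68 of the 49671 genes in the table, 6 of the linker histone H1, 19 of H2A, 18 of H2B, 12 of H3 and 13 of H4. By symbol, 55 were Hist1 genes on mouse chromosome 13, and 10 were Hist2 genes on chromosome 3. Another 2 were Hist3 genes on chromosome 11, and 1, Hist4h4, lay on chromosome 6. Hist1h2al, at chr13:51202688-51203065, lies far from the other Hist1 genes, which start between 21715763 and 23934462.

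RNA was counted in natural killer (NK) cells, sorted as live CD45+ CD3- NKp46+ DX5+ cells. The mice were FVB/N, of genotype Cdh1F/F;Trp53F/F;Foxp3GFP-DTR, and bore orthotopically transplanted KEP mammary tumours of 100 mm2. There were 4 groups of 4 libraries: NK cells from the axillary tumour-draining lymph node (LN) of mice given diphtheria toxin (DT), LN of mice given PBS, lung of mice given DT and lung of mice given PBS. DT (25 ug) or PBS was given at T = 0 and T = 7, a time whose unit the labels do not state. All 4 groups share genotype and tumour. In this allele cells that express Foxp3, as regulatory T cells do, carry the receptor for DT, and which cells remained in these hosts was not measured here. The design states 4 biological replicates per group.

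Histone proteins package DNA: H2A, H2B, H3 and H4 form the core of the nucleosome and H1 binds the linker DNA. Dividing cells make the clustered histone mRNAs in S phase, when new DNA needs new nucleosomes. Most of these mRNAs lack introns and end in a stem-loop rather than a poly(A) tail. The stem-loop binding protein SLBP holds that hairpin and guides processing, translation and decay. Several of the genes can also give a longer, polyadenylated mRNA, which is known from cells that have stopped dividing. The libraries followed Smart-seq2, which primes cDNA on poly(A), so an mRNA that ends at the stem-loop is poorly copied.

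The hairpin is shown here because it marks the end that the tail-less mRNA has, and the gene models of many members run on past it. Of the 68 genes, 44 held a match to the hairpin pattern after the stop codon, searched on the coding strand of the GENCODE M21 transcripts. The pattern was that of the histone 3′ stem-loop, 16 bases long. Sites of 26 bases on GRCm38 follow, with the 16 bases of the hairpin in capitals.
Hist1h1c, chr13:23739507-23739532, plus strand: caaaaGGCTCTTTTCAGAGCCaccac
Hist1h2be, chr13:23585526-23585551, minus strand: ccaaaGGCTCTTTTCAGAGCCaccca
Hist3h2a, chr11:58955167-58955192, plus strand: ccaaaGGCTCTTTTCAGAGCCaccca
Hist1h3e, chr13:23561898-23561923, minus strand: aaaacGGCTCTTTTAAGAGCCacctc
Hist1h4d, chr13:23581945-23581970, plus strand: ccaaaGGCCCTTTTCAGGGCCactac
Hist1h4n, chr13:21831793-21831818, minus strand: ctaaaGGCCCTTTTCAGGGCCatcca
Hist4h4, chr6:136803993-136804018, minus strand: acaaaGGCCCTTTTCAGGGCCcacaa
Hist2h4, chr3:96262934-96262959, minus strand: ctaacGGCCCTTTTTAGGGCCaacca
The hairpin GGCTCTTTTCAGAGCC was the commonest, in 23 genes. The annotated transcript went on for 840 bases after the hairpin in Hist1h1c, 1861 in Hist1h2be, 1643 in Hist3h2a and 2445 in Hist4h4, against 31 in Hist1h4n. No match was found in the 2192 bases after the stop codon of Hist2h2be, which says only that these letters are not in that window. Hist1h2be and Hist1h2bc have spliced models of 2 exons in this annotation, and Hist1h2bc also gave no match. Which of their transcripts were counted is not known.

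Promoters were another shared feature. RefSeq (GRCm38.p6) gave a window of 250 bases before to 50 after the start for 61 of the 68 genes, 62 windows in all. On either strand, the letters CCAAT stood in 85.5% of these windows, against 37.4% of the 32851 windows of all genes. The TATA-like letters TATAAA stood in 56.5%, against 13.6% of all windows. The octamer ATTTGCAT stood in 22.6%, against 1.74% of all windows, and these were 41.2% of the H2A windows, 41.2% of the H2B windows and none of the others. CCAAT was in every H1, H2A, H2B and H3 window and in 25.0% of the H4 windows. Some H2A and H2B genes are neighbours on opposite strands, and their windows overlap, as for Hist1h2ae with Hist1h2bg and Hist1h2ah with Hist1h2bk. Since both strands were searched, the same letters then count in both windows. The windows are thus not all separate sequences, and the shares of H2A and H2B are not independent. The start of Hist1h2be nearest to its coding sequence is printed as an example, since that gene recurs below; CCAAT and the octamer are in capitals, on the minus strand of chr13:23585921-23586220.
Hist1h2be promoter: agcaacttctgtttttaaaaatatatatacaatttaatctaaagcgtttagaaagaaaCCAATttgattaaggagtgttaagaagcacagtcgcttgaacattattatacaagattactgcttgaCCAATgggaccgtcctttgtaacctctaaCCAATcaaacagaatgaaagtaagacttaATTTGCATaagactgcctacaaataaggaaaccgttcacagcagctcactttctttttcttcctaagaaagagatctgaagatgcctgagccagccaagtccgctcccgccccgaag
A match of letters is a description and not a binding site.

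The clustered histone genes were weakly counted in these NK cells. Total counts per library lay between 3929560 and 10744934, of which all 68 genes together took between 202 and 828. Of the 68 genes, 58 had at least 1 count in some library, and 17 passed the filter on low counts that left 13940 genes to test. Those 17 held 86.7% of the counts of the 68. The 10 genes with no count were Hist1h1t, Hist1h2aa and Hist1h2ba, whose products are known from the testis, and Hist1h2af, Hist1h2ah, Hist2h2aa1, Hist2h2aa2, Hist2h2bb, Hist2h3b and Hist2h3c1. Their transcripts shared a median of 97% of their 50-base words with other transcripts. How reads that map to several genes were counted is not given in the sources used here. Over all members, the 19 that shared at least 80% of these words held 4.69% of the counts. Hist1h4n, a tested gene, has the same coding sequence as Hist1h4m, so its counts are uncertain. All H2A members but Hist2h2ab also overlap a miRNA row in the table; those rows held no counts.

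How the counts divided by the length after the stop codon depended on which gene ends and transcripts were used. By the GENCODE M21 transcript ends, the 29 members with more than 100 bases after the stop codon held 80.2% of the counts, or 212 counts per kb of exon, and 13 of them were tested. The 36 members with up to 100 bases held 15.8%, or 85.9 counts per kb of exon, and 3 of them were tested. The other 3 members have no coding model in that annotation. The gene bounds given in the deposited table leave 100 bases or fewer for 9 of the 29. Among them are Hist1h4d, Hist1h1e, Hist1h4c and Hist1h2ae, which were tested. Some others are cut but stay above 100 bases, such as Hist1h2bc (322 of 742 bases) and Hist1h2be (1834 of 1906). Within those bounds, the 21 members with more than 100 bases held 59.3% of the counts, or 178.8 counts per kb of exon, and 9 were tested. The 44 members with up to 100 bases then held 36.7%, or 158.8 counts per kb of exon, and 7 were tested. The gap in counts per kb was thus small by the deposited bounds. Exon length was taken within those bounds in both splits. The 212 counts per kb therefore rest on less exon than the GENCODE transcripts of those members hold. The first split takes 1 transcript per gene, with a hairpin where there is any. The second takes the most bases over all coding transcripts of the gene. Hist1h2bp, with 81 bases in the first and 150 in the second, is thus among the 36 there and the 21 here. Both splits are a description over genes.

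**Figure D1:**
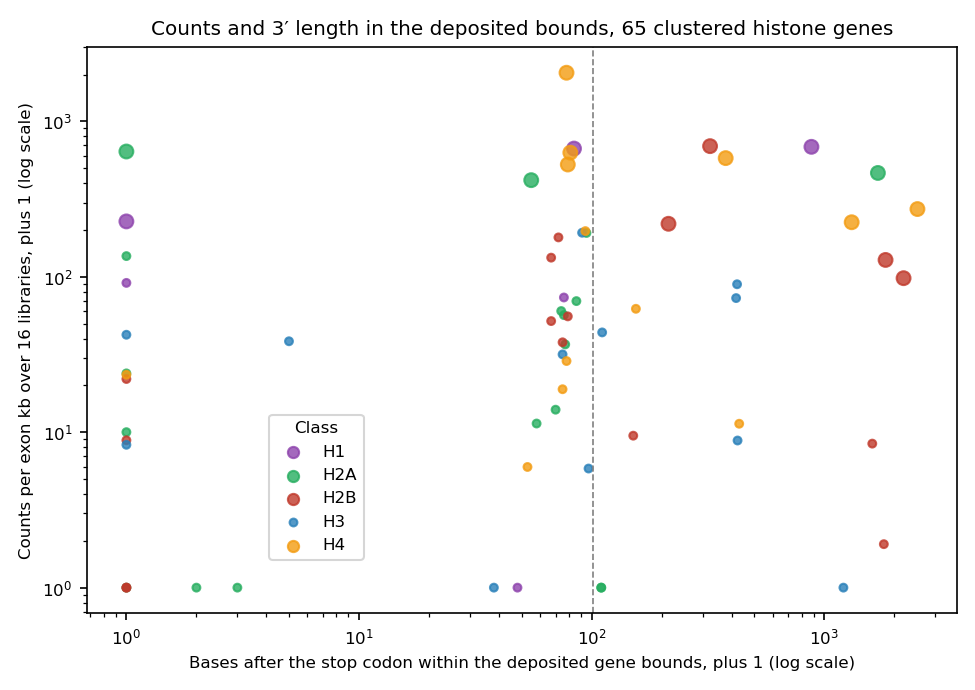
Each point is 1 of the 65 clustered histone genes with a coding model; the horizontal axis is the number of bases after the stop codon within the deposited gene bounds plus 1 and the vertical axis the counts per kb of exon over 16 libraries plus 1, both on log scales. Large points are tested genes, colours are histone classes, and the dashed line is at 100 bases; 9 of the 21 genes to its right and 7 of the 44 to its left were tested.

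Among classes, counts per kb of exon were 357.5 for H1, 309.4 for H4, 195.6 for H2A, 98.98 for H2B and 38.16 for H3. No H3 gene passed the filter. The genes with the highest mean level over the 16 libraries, in CPM (counts scaled to a common library size by TMM) per kb of exon, were Hist1h4d at 15.9 CPM per kb, Hist1h2al at 6.66 CPM per kb, Hist1h2bc at 5.74 CPM per kb and Hist1h1c at 5.404 CPM per kb. Over the 17 tested members the median biological coefficient of variation was 0.708, against 0.931 in the 3996 tested genes within the range of mean level of those 17 and 0.520 over all 13940.

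Summed over the 68 genes, NK cells held more histone counts in most DT libraries than in most PBS libraries. In LN the sums were 79.1, 109, 99.3 and 54.9 CPM with DT, against 61.5, 91.8, 53.4 and 59.6 CPM with PBS, and the groups overlapped. In lung they were 74.0, 87.2, 84.1 and 71.0 CPM with DT, against 59.8, 55.9, 50.04 and 55.1 CPM with PBS. The lowest lung DT library was above the highest lung PBS library. Over the 17 tested genes alone the lung groups overlapped, with lung DT 1 at 52.67 CPM and lung PBS 1 at 52.70 CPM, and the other 51 genes added 21.3 CPM in lung DT 1. The ratio of the group medians was 1.47 in LN and 1.42 in lung. These sums are a description with no test.

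By class, the ratio of medians of DT to PBS libraries was highest for H3, at 2.64 in LN and 1.89 in lung, where the sums lay between 0.371 and 8.84 CPM. It was 1.76 in LN and 1.69 in lung for H2B, and 1.55 in LN and 1.67 in lung for H4. H1 had 1.35 in LN and 1.21 in lung. H2A had 1.02 in LN and 1.04 in lung. Without Hist3h2a, the H2A gene with most counts, the H2A medians were 9.42 CPM in LN DT and 7.79 CPM in LN PBS libraries, and 10.4 CPM in lung DT and 5.20 CPM in lung PBS libraries. Within each of the 5 classes the libraries of DT and PBS mice overlapped in both tissues. In bulk samples, fewer cells of a type and less RNA per cell cannot be told apart.

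**Figure D2:**
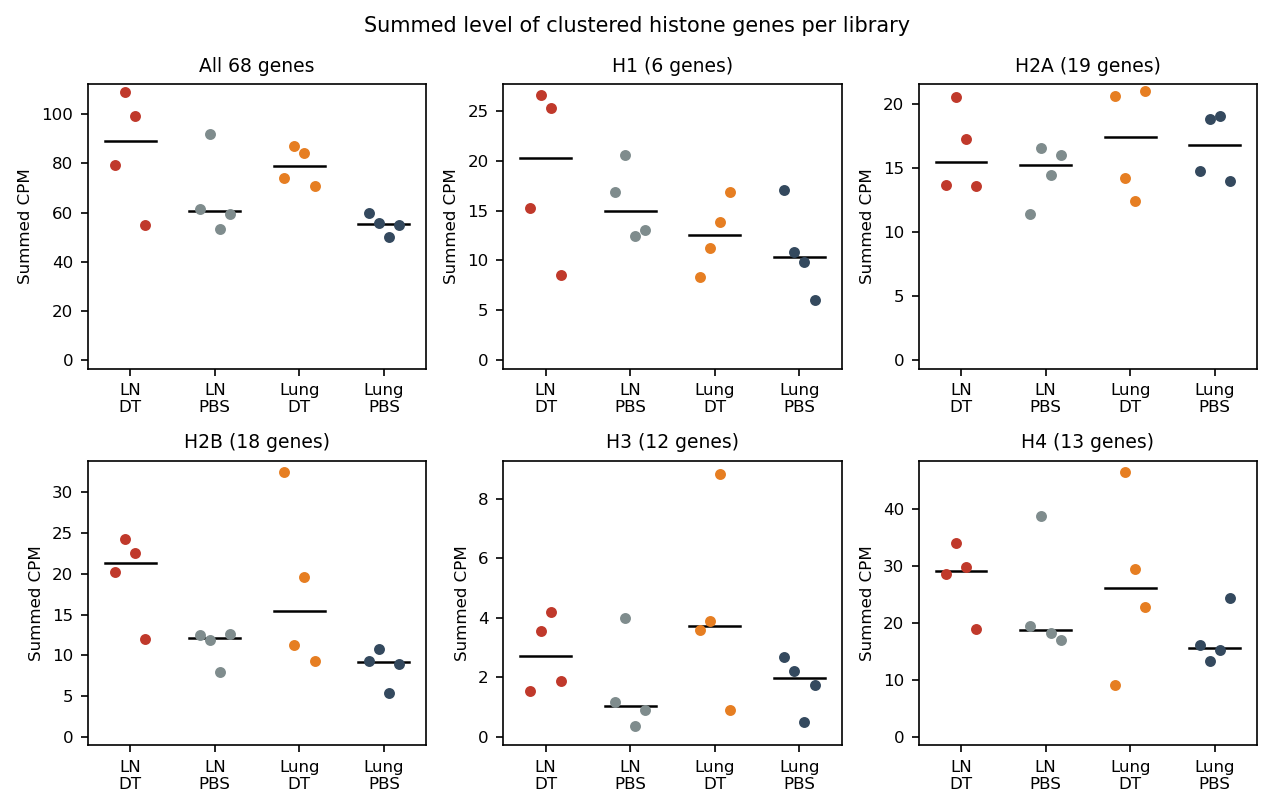
Summed CPM per library (vertical axis, linear) for all 68 clustered histone genes and for each class, by group on the horizontal axis; points are libraries 1 to 4 and lines are group medians. For all 68 genes the 4 lung DT libraries sit between 71.0 and 87.2 CPM, above the lung PBS libraries at 50.04 to 59.8 CPM, and the classes overlap.

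Gene by gene, no clustered histone gene passed the test between DT and PBS. The test was edgeR's quasi-likelihood test with Benjamini-Hochberg adjustment over all 13940 genes and a threshold of 0.05. In LN, 0 of 17 members were called, where 0.0646% of all genes were called higher with DT and 0.0% lower. None had an unadjusted p under 0.05, where 8.29% of all genes were higher and 3.52% lower at that level. DESeq2 called 0 members, where it called 262 of all genes higher and 61 lower. The limma-voom fit called 4, all higher, where it called 14.9% of all genes higher. In lung, 0 of 17 were called, where 0.0574% of all genes were called higher and 0.0502% lower. Of the 17, 3 had an unadjusted p under 0.05 in lung, 2 higher and 1 lower, where 7.66% of all genes were higher and 7.06% lower at that level. DESeq2 called 2 in lung, 1 higher and 1 lower, where it called 1.97% of all genes higher and 1.30% lower. There limma-voom called 0 members, where it called 252 of all genes higher and 188 lower.

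Taking both tissues together, the mean of the LN and lung effects again gave 0 of 17 called, where 2.47% of all genes were called higher and 1.43% lower. At an unadjusted p under 0.05 there were 5 members, 4 higher and 1 lower, where 13.7% of all genes were higher and 9.39% lower. DESeq2 called 3 (Hist1h2ak and Hist1h2be higher, Hist2h2be lower), where it called 7.69% of all genes higher and 3.83% lower. The limma-voom fit called 4, all higher (Hist1h2bc, Hist1h2be, Hist1h2ak and Hist2h4), where it called 14% of all genes higher. The median log2 fold change of the 17 members was 0.19 in LN, against 0.08 over all tested genes, and 0.60 in lung, against 0.09 over all tested genes. Above 0 were 12 of 17 members in LN and 10 of 17 in lung, where 54.6% and 54.5% of all tested genes were above 0.

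**Figure D3:**
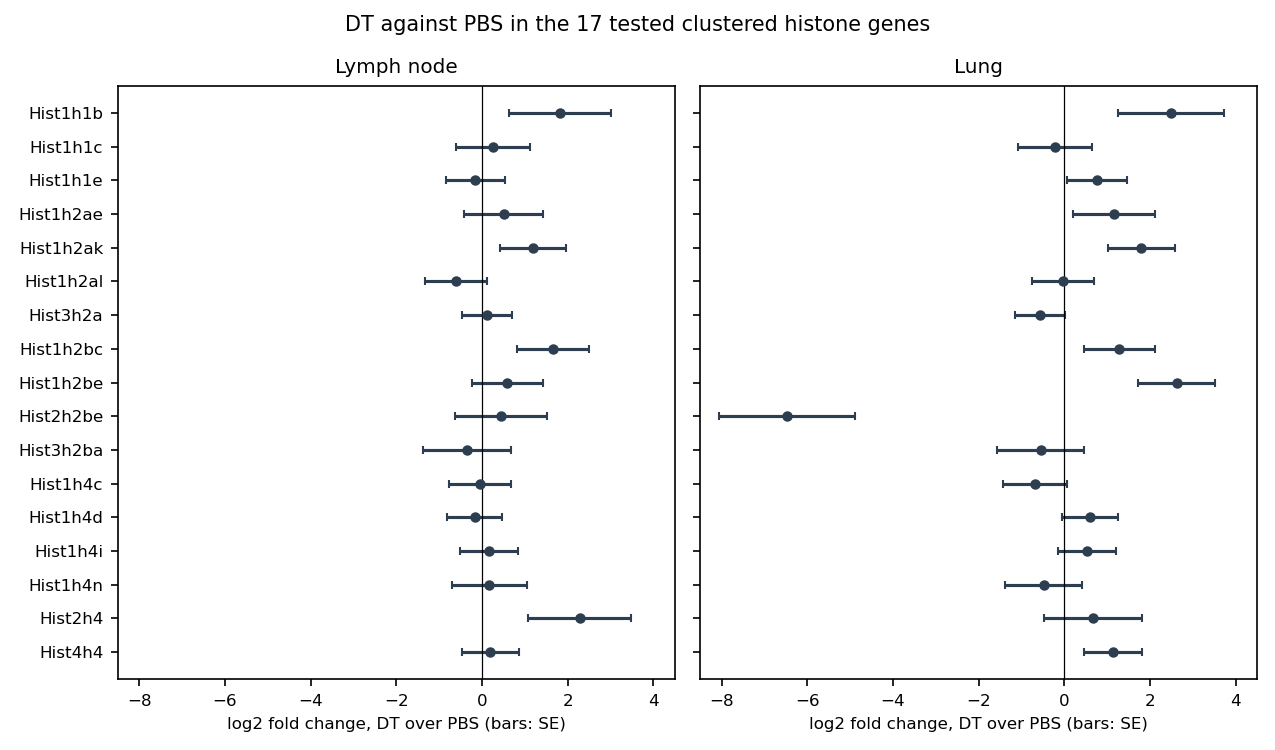
Log2 fold change of DT over PBS (horizontal axis; bars are standard errors) for the 17 tested clustered histone genes (vertical axis, by class) in lymph node and lung. In lung Hist2h2be lies at -6.47, a fitted value since all lung DT libraries hold no count of it, and the other members lie between -0.69 and 2.62.

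H2B genes, which encode a core histone found in every nucleosome, held the members with the smallest p-values. Hist2h2be had 0 counts in all 4 lung DT libraries, against 9, 10, 17 and 0 counts in lung PBS libraries. In LN it had 7, 40, 40 and 34 counts with DT and 17, 24, 6 and 50 with PBS. So the lung DT libraries stand at 0, a lung PBS library shares that value, and every LN library holds counts in overlapping ranges. Against a floor of 3 counts over the group, Hist2h2be was at least 11.9-fold lower in lung DT than in lung PBS; the test in lung gave an adjusted p of 0.121 (edgeR) and 0.00983 (DESeq2). The LN difference was 0.44 ± 1.07 (log2, SE; adjusted p = 0.915 in edgeR).

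Hist1h2be, an H2B gene of the Hist1 cluster, lay the other way. It had 2.15, 2.25, 6.22 and 4.97 CPM in lung DT libraries, against 1.39, 0.554, 0 and 0.495 CPM in lung PBS libraries. All lung DT libraries were above all lung PBS libraries, and it was the 1 tested member of which that holds, where 3.35% of all genes were higher without overlap in lung and 4.53% lower. The log2 fold change was 2.62 ± 0.90 (SE), with an adjusted p of 0.213 in edgeR and 0.0359 in DESeq2. In LN the values were 10.6, 8.56, 9.96 and 2.64 CPM with DT and 9.76, 5.32, 3.34 and 2.60 CPM with PBS, which overlapped.

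Hist1h2bc, a further H2B gene, had 3.93, 3.56, 4.32 and 3.18 CPM in LN DT libraries, against 0.105, 0.363, 2.47 and 1.81 CPM in LN PBS libraries. The groups did not overlap, yet the log2 fold change of 1.65 ± 0.84 (SE) had an adjusted p of 0.460 in edgeR. In lung it had 14.7, 7.25, 9.67 and 2.35 CPM with DT and 3.17, 3.05, 1.45 and 6.19 CPM with PBS, and the groups overlapped. Of the untested H2B genes, Hist1h2bm was also without overlap in LN, at 0.439 to 1.37 CPM with DT and 0 to 0.339 CPM with PBS. Those are low counts, 8, 5, 6 and 4 with DT against 0, 0, 0 and 3 with PBS. The share of untested genes without overlap was not taken.

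H2A genes encode the partner of H2B in the nucleosome core. Hist1h2ak had 2.91, 3.43, 3.36 and 2.20 CPM in LN DT libraries, against 0.525, 1.93, 1.48 and 1.24 CPM in LN PBS libraries, without overlap. In lung it had 5.87, 1.87, 3.32 and 1.18 CPM with DT and 0.793, 0.554, 0.724 and 1.36 CPM with PBS. The lung groups overlapped by the lowest DT and the highest PBS library. Its log2 fold change was 1.19 ± 0.77 in LN (SE; adjusted p = 0.575 in edgeR), 1.80 ± 0.79 in lung (adjusted p = 0.307) and 1.49 ± 0.55 over both tissues (adjusted p = 0.115).

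The other H2A genes named were Hist3h2a and Hist1h2al. Hist3h2a, which overlaps the gene Trim17, averaged 7.68 ± 5.92 CPM in lung DT libraries and 11.3 ± 2.36 CPM in lung PBS libraries (SD, n = 4 each). Hist1h2al averaged 1.75 ± 0.69 CPM in LN DT libraries and 2.68 ± 0.22 CPM in LN PBS libraries (SD, n = 4 each). Neither difference passed the test, with adjusted p of 0.678 for Hist3h2a in lung and 0.788 for Hist1h2al in LN (edgeR).

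H1 genes encode the linker histones. Hist1h1c, the member with most counts (1068 over all libraries), had 12.5, 15.5, 11.9 and 3.73 CPM in LN DT libraries, against 9.02, 11.1, 7.05 and 9.37 CPM in LN PBS libraries. In lung it had 0, 2.50, 9.67 and 13.2 CPM with DT and 11.8, 6.09, 7.72 and 3.72 CPM with PBS. Both pairs of groups overlapped, and a lung DT library held none of the gene that leads the list. Hist1h1b, a linker histone gene of dividing cells, had 1.03, 3.03, 5.04 and 0.329 CPM in LN DT libraries, against 0, 0.967, 1.11 and 0.564 CPM in LN PBS libraries. In lung its values were 4.72, 2.75, 0.138 and 0.653 CPM with DT and 0.495, 0.277, 0.121 and 0.495 CPM with PBS. In LN 2 of 4 DT libraries, and in lung 3 of 4, were above every PBS library of that tissue; over both tissues the log2 fold change was 2.16 ± 0.86 (SE; adjusted p = 0.142 in edgeR). Hist1h1e averaged 3.60 ± 1.65 CPM in lung DT libraries and 2.11 ± 1.04 CPM in lung PBS libraries (SD, n = 4 each; adjusted p = 0.626 in edgeR).

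H4 genes encode a core histone that pairs with H3. Hist2h4 had 4.62, 4.87, 6.36 and 2.53 CPM in LN DT libraries, against 1.05, 1.33, 1.36 and 0 CPM in LN PBS libraries. The LN groups did not overlap, as for Hist1h2bc and Hist1h2ak; these were 3 of 17 tested members, where 5.05% of all genes were higher without overlap in LN and 3.42% lower. The log2 fold change of Hist2h4 was 2.28 ± 1.195 in LN (SE; adjusted p = 0.473 in edgeR). In lung it spread widely, at 0, 9.25, 0.691 and 4.97 CPM with DT and 1.78, 0.831, 2.53 and 4.09 CPM with PBS. Hist4h4 had 2.86, 18.4, 14.1 and 6.93 CPM in lung DT libraries, against 3.27, 2.22, 4.22 and 9.29 CPM in lung PBS libraries. A pair of lung DT libraries stood above every other library of the 16 and the groups overlapped (log2 fold change 1.14 ± 0.68, SE; adjusted p = 0.444 in edgeR). Hist1h4i averaged 4.71 ± 2.59 CPM in lung DT libraries and 3.22 ± 1.11 CPM in lung PBS libraries (SD, n = 4 each; adjusted p = 0.736 in edgeR).

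The H3 genes, untested for low counts, were led by Hist1h3a, Hist1h3e and Hist1h3f. Hist1h3f had 1.29, 0.750, 2.49 and 0 CPM in lung DT libraries, against 0.594, 0.277, 0.121 and 0 CPM in lung PBS libraries. Hist1h3e had 2.29, 1.12, 1.52 and 0 CPM in lung DT libraries and 0.495, 0.277, 0 and 0.743 CPM in lung PBS libraries. For both genes 3 of 4 lung DT libraries were above all lung PBS libraries and 1 held none. In LN, Hist1h3e had 0, 0.395, 0.600 and 0 CPM with DT and 0.315, 1.33, 0.124 and 0.339 CPM with PBS, a lower mean with DT. Hist1h3f had 1.197, 0.395, 0.600 and 0.110 CPM in LN DT libraries and 0.420, 0, 0 and 0 CPM in LN PBS libraries. The LN groups overlapped for both genes. Hist1h3a averaged 0.943 ± 0.522 CPM in LN DT libraries and 0.828 ± 0.983 CPM in LN PBS libraries (SD, n = 4 each).

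**Figure D4:**
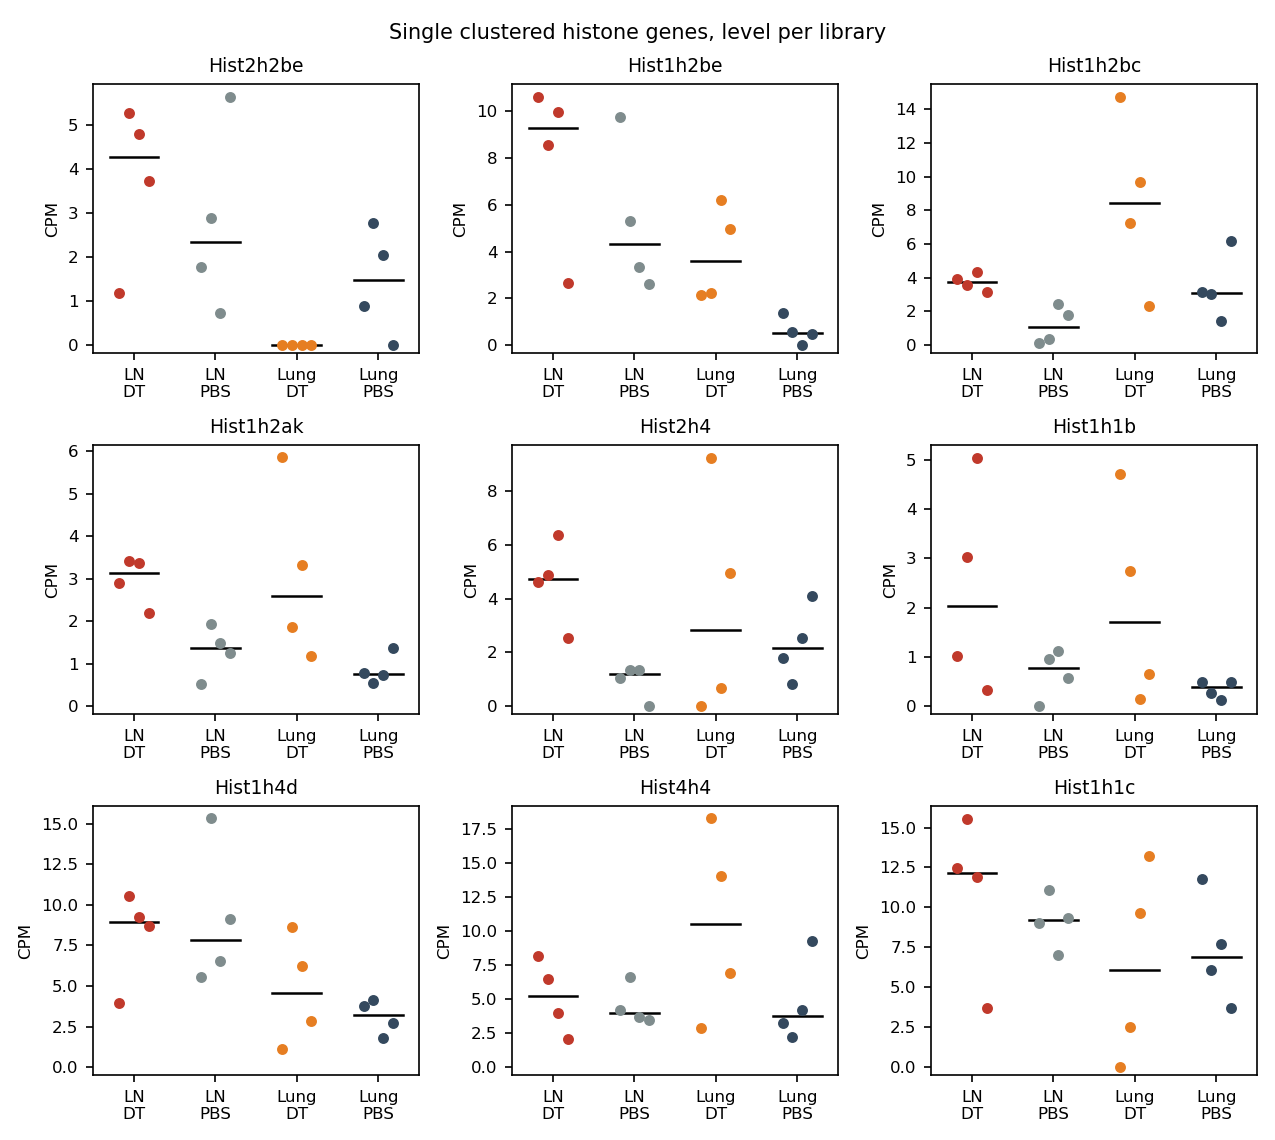
CPM per library (vertical axis, linear) of 9 clustered histone genes by group (horizontal axis); points are libraries 1 to 4 and lines are group medians. Hist2h2be is at 0 in all 4 lung DT libraries, Hist1h2be is higher in every lung DT than in every lung PBS library, and Hist1h2bc, Hist1h2ak and Hist2h4 are higher in every LN DT than in every LN PBS library.

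Whether DT acted differently on these genes in lung and LN was tested by the interaction, the lung effect minus the LN effect. It called 0 of 17 members, where 0.0% of all genes were called higher and 0.00717% lower. The smallest p belonged to Hist2h2be (log2 difference -6.91 ± 1.89, SE; unadjusted p = 0.00247, adjusted p = 0.785 in edgeR), the 1 member with an unadjusted p under 0.05. At that level 1.33% of all genes were higher and 2.88% lower. The log2 difference of Hist2h2be is a fitted value, since no lung DT library holds a count of it. DESeq2 and limma-voom also called 0 members, where DESeq2 called 1 of all genes higher and 18 lower, and limma-voom 0. So Hist2h2be, at 0 in lung DT and with counts in LN DT, is not shown to respond differently in the tissues.

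Between tissues, 1 clustered histone gene passed the test, Hist2h2be, which was lower in lung than in LN of mice given DT. The summed counts were 0 in the 4 lung DT libraries, against 121 in the 4 LN DT libraries, at least 39-fold lower against a floor of 3 counts over the group. The adjusted p was 0.0103 in edgeR and 5.20e-05 in DESeq2, which called 5.06% of all genes lower. This was 1 of 17 members called lower and 0 called higher, where 2.78% of all genes were called lower and 3.97% higher. Libraries of the same number deviated together across these 2 groups; with each such pair taken as 1 animal, the adjusted p of Hist2h2be was 0.0522 and the call was lost. With a mean of at least 5 CPM asked for, or with these 2 groups alone in the fit, the gene was not among those tested.

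The members next in p in mice given DT were Hist1h4n and Hist4h4. Hist1h4n had 0.859, 0.375, 2.35 and 0.131 CPM in lung DT libraries, against 4.62, 4.61, 3.00 and 1.43 CPM in LN DT libraries. Those groups overlapped through 1 lung library, and the log2 difference was -1.86 ± 0.91 (SE; adjusted p = 0.255 in edgeR). Hist2h2be was the 1 of 17 members lower without overlap, where 6.08% of all genes were lower without overlap between lung DT and LN DT and 5.57% higher.

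In mice given PBS, no member passed the test between tissues. The count was 0 of 17, where 2.70% of all genes were called higher in lung and 0.904% lower (377 and 126 genes, and 299 and 229 when libraries were scaled by total counts); 2 had an unadjusted p under 0.05, both lower in lung, where 6.54% of all genes were lower and 10.3% higher at that level. DESeq2 called 1 lower, where it called 2.87% of all genes lower, and limma-voom 2 lower, where it called 7.46%. Hist1h2be was lowest in p: its lung PBS values, 1.39 CPM or less, were all under its LN PBS values, 2.60 CPM or more (log2 difference -3.05 ± 0.91, SE; adjusted p = 0.0713 in edgeR and 0.00362 in DESeq2). Without lung DT library 1 its adjusted p in edgeR was 0.0458. Hist1h4d had 3.76, 4.15, 1.81 and 2.72 CPM in lung PBS libraries, against 5.56, 15.4, 6.55 and 9.14 CPM in LN PBS libraries, also without overlap (log2 difference -1.56 ± 0.66, SE; adjusted p = 0.226 in edgeR). These 2 were the tested members lower without overlap, where 9.91% of all genes were lower without overlap and 9.25% higher. Among untested members Hist2h2ac was also lower without overlap, at 0 to 0.396 CPM in lung PBS and 0.742 to 1.99 CPM in LN PBS libraries. The median log2 difference of the 17 members was -0.31, against -0.01 over all tested genes. Over both tissues the comparisons share libraries, and their values are given side by side only.

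Genes that supply and use histones were taken as 4 lists, chosen as the members were. The list of DNA replication and S phase genes showed the most calls: 6 of 28 were higher with DT in the mean of both tissues and none lower, where 2.47% of all genes were called higher and 1.43% lower. None of the 28 was called in LN or in lung alone by edgeR. The mean of both tissues takes every library as a separate animal. Same-numbered LN DT and lung DT libraries deviated together, so the p-values of that mean could be too small. With the mitochondrial share of counts as a covariate, 0 genes of all 13940 were called in the mean of both tissues, these 6 included; without both DT libraries numbered 1, the 4 lists held 7 genes called higher, as they did with them, and 9 called lower, against 1 with them. The median log2 fold change of the DNA replication and S phase list was 0.41 in LN, against 0.08 over all tested genes. In lung it was 0.55, against 0.09 over all tested genes. Below 0 were 10 of the 28 genes in LN and 7 in lung. Summed over the list, LN DT libraries held 1197 to 1373 CPM and LN PBS libraries 1004 to 1403 CPM. In lung the sums were 1230 to 2382 CPM with DT and 1054 to 1502 CPM with PBS. Both pairs of groups overlapped (exact two-sided permutation p = 0.286 in LN and 0.143 in lung).

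The 6 genes were Clspn, a checkpoint adaptor at replication forks, Pola1 and Prim1, which start new DNA strands, and Rrm2, Tk1 and Tyms, which make nucleotides. Tyms averaged 104 ± 67.5 CPM in LN DT libraries and 22.7 ± 10.3 CPM in LN PBS libraries (SD, n = 4 each). In lung Tyms averaged 111 ± 79.5 CPM in DT libraries and 37.7 ± 16.5 CPM in PBS libraries (SD, n = 4 each; log2 fold change over both tissues 1.87 ± 0.37, SE, adjusted p = 0.0168 in edgeR). Pola1 had a log2 fold change over both tissues of 1.33 ± 0.24 (SE, adjusted p = 0.0111) and Clspn of 2.60 ± 0.52 (SE, adjusted p = 0.0179). Mcm5, a subunit of the replicative helicase, was not called (-0.31 ± 0.25, SE, adjusted p = 0.477). Pcna, the sliding clamp, was not called by treatment and was higher in lung than in LN, at 242 ± 105 CPM in lung DT libraries and 120 ± 32.7 CPM in LN DT libraries (SD, n = 4 each; adjusted p = 0.0380).

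Of 20 genes of histone mRNA transcription and 3′ end processing, 1 was higher with DT over both tissues and none lower. In that comparison 2.47% of all genes were called higher and 1.43% lower. The gene was Ccne2, cyclin E2, whose kinase activates the histone gene coactivator NPAT. Ccne2 averaged 31.3 ± 18.7 CPM in LN DT libraries and 4.77 ± 2.45 CPM in LN PBS libraries (SD, n = 4 each), and 91.4 ± 104 CPM in lung DT libraries and 13.2 ± 6.16 CPM in lung PBS libraries. Its log2 fold change over both tissues was 2.74 ± 0.47 (SE, adjusted p = 0.00874 in edgeR). Slbp, the hairpin binder, averaged 333 ± 177 CPM in LN DT libraries and 280 ± 57.6 CPM in LN PBS libraries (SD, n = 4 each). In lung Slbp averaged 470 ± 143 CPM with DT and 528 ± 227 CPM with PBS, and the fold change over both tissues was 0.04 ± 0.26 (log2, SE; adjusted p = 0.942 in edgeR). Npat gave 0.20 ± 0.24 (log2, SE; adjusted p = 0.641). Ncbp1, a subunit of the cap-binding complex, gave -0.70 ± 0.20 (log2, SE; adjusted p = 0.0553). Cdk2, the partner of cyclin E, was higher in lung PBS (77.5 ± 11 CPM) than in LN PBS (27.3 ± 9.59 CPM; SD, n = 4 each; adjusted p = 0.0185).

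Of 19 histone chaperones, which carry new histones to DNA, 1 was lower with DT over both tissues and none higher. There 1.43% of all genes were called lower and 2.47% higher. The gene was Nap1l4, with a log2 fold change of -0.87 ± 0.19 (SE, adjusted p = 0.0243 in edgeR). Asf1b, a chaperone of H3 and H4, gave 0.86 ± 0.26 (SE, adjusted p = 0.0656). Rbbp4, a further histone binder, averaged 148 ± 48.2 CPM in LN DT libraries and 250.3 ± 39.4 CPM in LN PBS libraries (SD, n = 4 each; adjusted p = 0.233). Nasp, which binds soluble histones, was higher in lung DT (125 ± 22.3 CPM) than in LN DT (44.02 ± 5.03 CPM; SD, n = 4 each; adjusted p = 0.00261). Of the 11 histone variants, whose symbols do not begin with Hist1h to Hist4h, 9 were tested and none was called in any of the 6 comparisons by edgeR. H3f3b, which encodes the variant H3.3, averaged 1664 ± 920 CPM in lung DT libraries and 2384 ± 521 CPM in lung PBS libraries (SD, n = 4 each), and H2afz, of H2A.Z, 846 ± 474 CPM and 949 ± 120 CPM in those groups. H2afj gave 0.28 ± 0.15 over both tissues (log2, SE; adjusted p = 0.295). The damage-linked variant H2afx averaged 38.7 ± 26.8 CPM in LN DT libraries and 51.5 ± 3.27 CPM in LN PBS libraries, and the linker variant H1f0 7.03 ± 4.47 CPM and 8.39 ± 10.7 CPM in those groups (SD, n = 4 each). Cenpa, the H3 variant of the centromere, gave 0.84 ± 0.25 over both tissues (log2, SE; adjusted p = 0.0613).

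**Figure D5:**
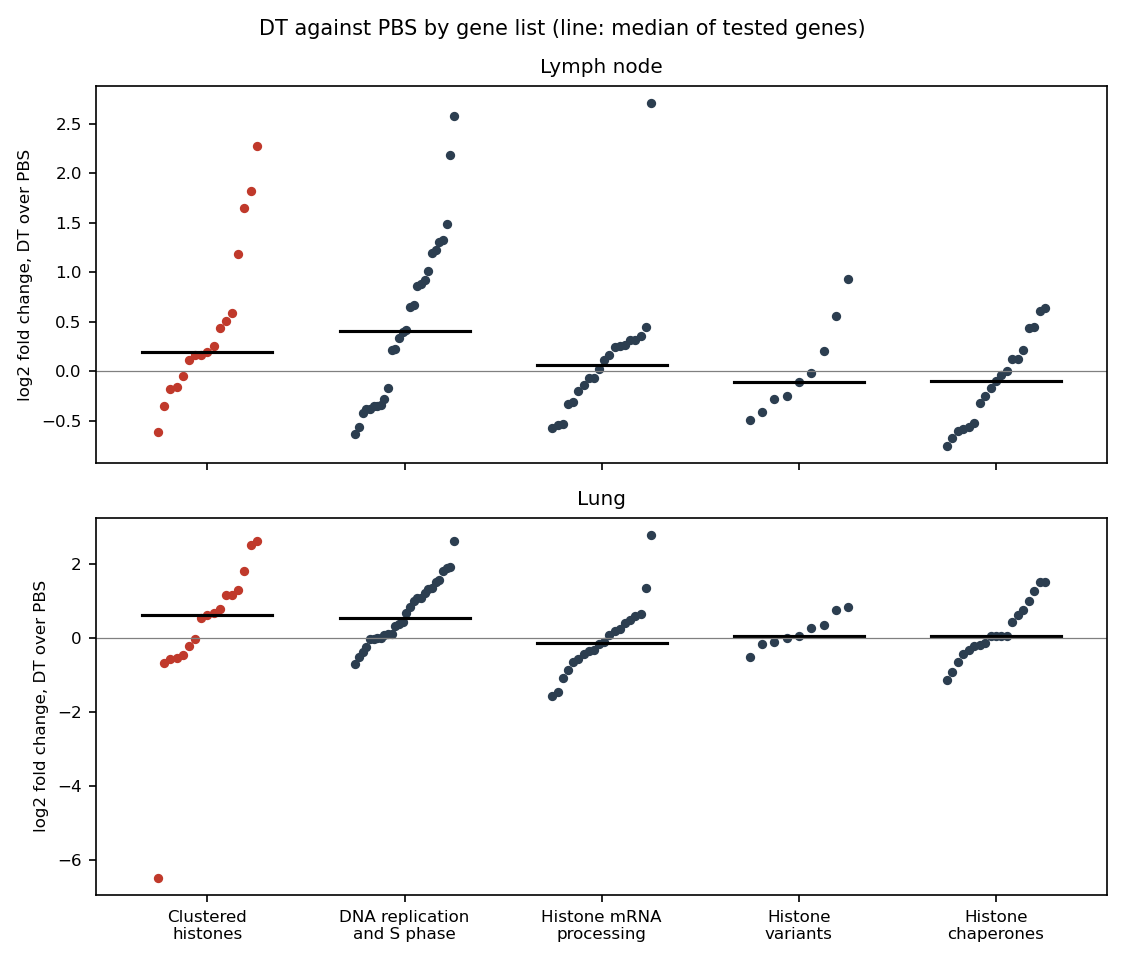
Log2 fold change of DT over PBS (vertical axis) in lymph node and lung for the tested genes of each list (horizontal axis); points are genes in ascending order and lines are medians. The median of the clustered histone genes is 0.19 in LN and 0.60 in lung, and that of the DNA replication and S phase list is 0.41 in LN and 0.55 in lung.

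Values of proliferation, of other cells and of RNA quality are given for the same groups, and their part in the histone values was not tested. Mki67, a protein of cycling cells, stood at 86.3 to 244 CPM in lung DT libraries, against 11.3 to 27.04 CPM in lung PBS libraries, and at 27.1 to 68.4 CPM in LN DT libraries, against 5.77 to 16.3 CPM in LN PBS libraries. Of the plasma cell markers, 7 of 7 were found in LN DT libraries, with a summed level of 218 to 958 CPM, and 6 of 7 in LN PBS libraries, with 3.63 to 12.3 CPM and Tnfrsf17 at 0. The 7 B cell markers summed to 143 to 896 CPM in LN DT libraries and 62.9 to 117 CPM in LN PBS libraries. In lung, plasma cell markers summed to 0.653 to 22.6 CPM with DT, with Derl3 and Tnfrsf17 at 0, and to 0.241 to 28.0 CPM with PBS. Lung macrophage and monocyte markers summed to 395 to 3946 CPM with DT and 625 to 3448 CPM with PBS. Dendritic cell markers there summed to 1024 to 3109 CPM with DT and 2403 to 2803 CPM with PBS. For red cell markers these sums were 25.0 to 578 CPM and 272 to 999 CPM, and for T cell markers 60.5 to 429 CPM and 39.3 to 78.9 CPM. The mitochondrial share of counts was 3.11% to 4.40% in lung DT libraries and 0.951% to 2.57% in lung PBS libraries (exact two-sided permutation p = 0.0286, the smallest that 4 against 4 allow; 0.111 adjusted over 39 such tests). In LN it was 1.24% to 4.93% with DT and 1.05% to 1.68% with PBS (exact permutation p = 0.114). The libraries LN DT 1 and lung DT 1 stood apart, with the highest Malat1, a nuclear RNA, at 18170 and 17120 CPM. Without both, edgeR called 0 members between DT and PBS in each tissue and in the mean of both. Of all genes it then called 22 higher and 2 lower in LN, 169 and 305 in lung, and 628 and 745 in the mean. Of the NK cell markers, Ncr1 (NKp46) stood at 2451 to 7899 CPM in all libraries, Itga2 (DX5) at 62.7 to 159 CPM and Ptprc (CD45) at 3109 to 8416 CPM, and Cd3e, of T cells, at 0 to 30.1 CPM.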

How the data were processed

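The authors deposited 1 table of raw read counts for 49671 genes in 16 NK cell libraries from mice. HISAT2, HTSeq and the build GRCm38 are named in the submitters' processing notes. Their versions, the strand setting and the handling of reads with several positions are not given in the sources used. All 16 columns were used. Library totals lay between 3929560 and 10744934, and 1 count was worth 0.0991 to 0.277 CPM.

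Genes kept by filterByExpr of edgeR 4.0.16 (R 4.3.3; minimum count 10, minimum total 15) were scaled by TMM and fitted with the quasi-likelihood method (robust) as 4 group means over all 16 libraries, which left 12 residual degrees of freedom (common biological coefficient of variation 0.621). The 6 two-sided comparisons were DT against PBS in LN, in lung and as the mean of both, the interaction, and lung against LN with PBS and with DT. P-values were adjusted by Benjamini-Hochberg over all 13940 genes, and genes with an adjusted p under 0.05 are called. Errors of log2 fold changes (SE) are the size of the fold change divided by the root of the F value of its test. Where a group holds no count, as Hist2h2be in lung DT, the fold change is fitted and its SE does not measure a spread. The p-values take each library as 1 animal. If same-numbered LN and lung libraries share an animal, those of the mean of both tissues could be too small. The fit was tested on simulated data with 200 changed genes.

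Sites and transcripts came from GENCODE M21 and promoters from RefSeq, both on GRCm38. Exon length was taken within the deposited gene bounds. Floors of 3 counts cover counting error only.

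Named are members called, the 3 of smallest p per comparison, the 3 of highest mean CPM per class, listed genes called or among the 2 of smallest p for DT, and a set of 15 genes for checks. The values of Hist1h2bm and Hist2h2ac were chosen after they were seen. The members, lists and rules were chosen with earlier results of these data known. Libraries of the same number deviated together between lung DT and LN DT (correlations of deviations from group means 0.216 to 0.494). Each matched its own number best in 4 of 4. They were taken as pairs only in an added run, and the main fit takes the libraries as unpaired. The labels do not say that a number marks an animal.

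Alternatives were median-ratio size factors, total counts, no filter on low counts, a minimum mean of 5 CPM, the compared groups alone, the replicate block, the mitochondrial share as covariate, both DT libraries numbered 1 left out, DESeq2 1.42.0, limma-voom (limma 3.58.1) with sample weights and each library left out. An animal block, and the split of members by bases after the stop codon within the deposited bounds, were added after the data were seen.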

Additional observations from a re-analysis of the deposited data

Results flagged for a closer look

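Of 92 groups of 4 libraries looked at (17 named genes and 6 sums), 4 held a library far from the other 3, and chance flags about 1 in 20. All lay among the LN PBS libraries. LN PBS 2 was highest for Hist1h3a, at 2.30 CPM where the others had 0.247 to 0.451, and for the sum of the H4 genes, at 38.8 CPM where the others had 16.9 to 19.5. LN PBS 1 was the 1 library of its group with Hist1h3f, at 0.420 CPM. LN PBS 3 was lowest for the sum of the H2B genes, at 7.91 CPM where the others had 11.8 to 12.6.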

How the results depend on the processing

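None of the 18 log2 fold changes of members recomputed turned its sign under any alternative run. Hist2h2be in lung DT against LN DT had adjusted p between 5.20e-05 and 0.0522 over 25 alternatives and passed in 24. Members called were otherwise 0, except as follows. With a minimum mean of 5 CPM, 4 members were tested and 0 called; with the compared groups alone 0 were called for lung DT against LN DT. DESeq2 called 1 higher and 1 lower in lung, 2 higher and 1 lower in the mean of both tissues, and 1 lower in lung PBS against LN PBS. The limma-voom fit called 4 higher in LN, 4 higher in the mean and 2 lower in lung PBS against LN PBS. Without both DT libraries numbered 1, 1 member (Hist1h2be) was lower in lung PBS against LN PBS, where 3.2% of all genes were lower. Leaving out each library in turn gave 0 to 1 lower in the mean (1, Hist2h2be, without lung PBS 4, where 1.56% of all genes were lower). It gave 0 to 1 lower in lung PBS against LN PBS (1, Hist1h2be, without lung DT 1, where 2.19% of all genes were lower). In lung DT against LN DT it gave 1 lower each time, where 1.35% to 4.86% of all genes were lower.

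For the replicate block, same-numbered libraries correlated over 0.1 in 1 of 4 numbers for LN DT against LN PBS, 1 of 4 for lung DT against lung PBS and 1 of 4 for lung PBS against LN PBS, and a library matched its own number best in 1 of 4 in each. Across all 16 libraries the block left the calls of members as they were (Hist2h2be, lung DT against LN DT, adjusted p = 0.0246). With each number as 1 animal, 0 members were called in lung DT against LN DT; the lists of other genes then held 1 lower there, and 4 higher and 1 lower in lung PBS against LN PBS. All genes called lower in lung DT against LN DT were 720 with that block and 387 without.

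Genes of the 4 lists called (7 higher and 1 lower in the mean, 2 higher in each tissue comparison, otherwise 0) varied more. DESeq2 gave 4 higher and 1 lower in LN, 6 and 1 in lung, 13 and 4 in the mean, 2 lower in lung PBS against LN PBS and 1 lower in lung DT against LN DT. For limma-voom these were 15 higher and 10 lower in LN, 3 and 1 in lung, 18 and 14 in the mean, 7 and 6 in lung PBS against LN PBS, and 1 lower in lung DT against LN DT. With the mitochondrial covariate the mean gave 0 higher and 0 lower. Without both DT libraries numbered 1 there were 2 higher and 1 lower in lung, 9 lower in the mean, 7 higher and 1 lower in lung PBS against LN PBS, and 3 lower in lung DT against LN DT. With total counts there was 1 lower in lung PBS against LN PBS, without a filter 1 higher in lung DT against LN DT, and with a minimum of 5 CPM 1 higher in lung. With the compared groups alone there were 4 higher and 4 lower in lung PBS against LN PBS and 1 higher in lung DT against LN DT. Leaving out single libraries gave 0 to 3 higher in LN, 0 to 1 higher and 0 to 1 lower in lung, 4 to 9 higher and 0 to 6 lower in the mean, 0 to 2 higher and 0 to 1 lower in lung PBS against LN PBS, and 1 to 2 higher and 0 to 2 lower in lung DT against LN DT. The cause was not tested.

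Over all genes, the alternatives and left-out libraries moved the calls widely: 0 to 2076 higher and 0 to 1646 lower in LN (9 and 0 as reported), 0 to 275 and 0 to 305 in lung (8 and 7), 0 to 1952 and 0 to 1822 in the mean (344 and 200), 206 to 1233 and 56 to 1040 in lung PBS against LN PBS (377 and 126), 225 to 1027 and 97 to 781 in lung DT against LN DT (554 and 387), and 0 to 1 and 0 to 18 in the interaction (0 and 1). The highest counts came from limma-voom or DESeq2, except in lung for lower genes, from the fit without both DT libraries numbered 1. Beside the list counts above, DESeq2 called 262 higher and 61 lower of all genes in LN and 275 and 181 in lung. In the mean it called 1072 and 534. The limma-voom fit called 2076 and 1646 in LN, 252 and 188 in lung, and 1952 and 1822 in the mean. In lung PBS against LN PBS, DESeq2 called 779 and 400 and limma-voom 1233 and 1040.

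Medians of the sums without the most abundant gene were 48.94 CPM for all members in lung PBS. For H1 they were 7.949 in LN DT, 6.654 in LN PBS, 6.223 in lung DT and 3.53 in lung PBS (CPM), and for H2A 9.419, 7.785, 10.43 and 5.195 CPM in that order of groups. H2B had 11.09 CPM in LN DT and 5.551 in LN PBS, and H4 22.11 CPM in LN DT. Depth limits all of this: the 68 genes took 202 to 828 counts per library. The share of counts on members with more than 100 bases after the stop codon was 59.3% within the deposited bounds and 80.2% by the annotated ends.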
